A study of Mus musculus with 23 samples.

Results

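The Cyp2c subfamily of cytochrome P450 genes was described in livers of CYP2E1-KO and WT mice of both sexes. It was taken as 10 genes listed by name (Cyp2c29, Cyp2c37, Cyp2c38, Cyp2c39, Cyp2c40, Cyp2c50, Cyp2c54, Cyp2c67, Cyp2c68 and Cyp2c70) of 65535 genes in the deposited table. All 10 passed the filter on low counts, as did 11370 genes in all. Whole-liver RNA was counted at the 3′ ends of transcripts in 23 libraries, each called a biological replicate by the labels. There were 6 Male KO, 6 Female KO, 6 Male WT and 5 Female WT libraries. KO mice were of the line 129/Sv-Cyp2e1tm1Gonz/J, in which Cyp2e1 is disrupted, and WT mice were of the separate line 129S1/SvImJ, so the disruption and any other difference between the lines cannot be told apart. All mice ate normal chow and were untreated as far as the labels say. The labels give their age as 12 to 13 weeks in one place and 16 weeks in another.

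Cytochromes P450 are haem enzymes of the endoplasmic reticulum that take electrons from P450 reductase and insert oxygen into their substrates. CYP2C enzymes of hepatocytes oxidise drugs, arachidonic and linoleic acid, steroids and, in the mouse, bile acids, and the genes lie side by side as products of repeated gene duplication. Several mouse members are known to be expressed differently by male and female liver, where the pulsatile or steady release of growth hormone acts through STAT5, with CUX2 as a female-enriched and BCL6 as a male-enriched repressor.

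The copies are so alike that their sequences bear on every value below. In the GENCODE annotation of chromosome 19 the genes stand in the order Cyp2c29, Cyp2c38, Cyp2c39, Cyp2c67, Cyp2c68, Cyp2c40, Cyp2c69, Cyp2c37, Cyp2c54, Cyp2c50 and Cyp2c70. At a protein identity of at least 90%, the members formed 3 groups of copies, namely Cyp2c40 with Cyp2c67 and Cyp2c68, Cyp2c37 with Cyp2c50 and Cyp2c54, and Cyp2c38 with Cyp2c39. Cyp2c29 and Cyp2c70 had no copy at that level. Proteins of Cyp2c40 and Cyp2c68 were 97.1% identical, those of Cyp2c40 and Cyp2c67 95.9%, those of Cyp2c37 and Cyp2c50 94.5%, and those of Cyp2c38 and Cyp2c39 92.0%. The last 90 coding bases of the Cyp2c40 group (minus strand of chromosome 19, GENCODE transcripts, GRCm38) are shown because counting takes place near this end of the transcript. The capital marks the only position at which they differ.

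Cyp2c67 coding end: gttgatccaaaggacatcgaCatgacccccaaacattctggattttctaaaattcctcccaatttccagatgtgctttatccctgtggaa
Cyp2c68 coding end: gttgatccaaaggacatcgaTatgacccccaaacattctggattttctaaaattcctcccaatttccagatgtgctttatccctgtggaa
Cyp2c40 coding end: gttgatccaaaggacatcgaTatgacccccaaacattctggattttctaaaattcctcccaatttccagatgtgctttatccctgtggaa

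Of the windows of 50 bases in the last 400 bases of each transcript, 67.0% in Cyp2c40, 51.6% in Cyp2c68 and 37.3% in Cyp2c67 were found unchanged in another Cyp2c gene. That share was 23.1% in Cyp2c50, 17.4% in Cyp2c37, 13.7% in Cyp2c54 and 4.3% in Cyp2c39, and no such window was found in Cyp2c29, Cyp2c38 or Cyp2c70. The deposited counts held fractions for Cyp2c37 in 23 libraries, for Cyp2c40 in 22 and for Cyp2c67 and Cyp2c54 in 21 each. They held them for Cyp2c50 and Cyp2c68 in 20 each, for Cyp2c39 in 19 and for Cyp2c29 and Cyp2c38 in 16 each. For Cyp2c70 this was so in 2 of the 23 libraries. Reads were therefore divided between genes, also for members with no shared window. Levels of close copies are uncertain for this reason, and the comparisons are given again below with the counts of copies summed. Summing does not remove this uncertainty for Cyp2c29, which has no close copy.

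Upstream sequence of Cyp2c67 and Cyp2c40 is shown because these near-copies were opposite in their sex difference. Both are 220-base parts of the RefSeq promoter windows (250 bases before to 50 after the annotated start, GRCm38.p6, minus strand) that align without gaps, at chr19:39649073-39649292 for Cyp2c67 and chr19:39812765-39812984 for Cyp2c40. The 15 capitals in each mark the bases that differ, and 93.2% of the aligned bases were identical.

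Cyp2c67 promoter part: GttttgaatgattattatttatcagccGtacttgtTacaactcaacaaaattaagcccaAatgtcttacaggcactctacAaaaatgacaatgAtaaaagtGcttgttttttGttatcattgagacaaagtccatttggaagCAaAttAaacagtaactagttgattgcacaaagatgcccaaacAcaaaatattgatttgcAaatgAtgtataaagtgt
Cyp2c40 promoter part: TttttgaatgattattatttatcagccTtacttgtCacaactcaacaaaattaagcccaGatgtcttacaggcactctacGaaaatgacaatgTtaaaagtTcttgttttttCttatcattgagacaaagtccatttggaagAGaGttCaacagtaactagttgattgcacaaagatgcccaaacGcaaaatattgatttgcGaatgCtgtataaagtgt

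The annotated start of Cyp2c40 lies inside this stretch and that of Cyp2c67 further downstream. The promoter table held 9 of the 10 members, all but Cyp2c54. The letters CAAAGTCCA, an HNF4 motif, were found on either strand in 4 of these 9 windows (Cyp2c40, Cyp2c67, Cyp2c68 and Cyp2c70), and in 0.47% of all 32851 promoter windows. The HNF6 motif ATTGAT was in 5 of 9 (Cyp2c37, Cyp2c40, Cyp2c50, Cyp2c67 and Cyp2c68), against 7.54% of all windows, and the C/EBP motif TTGCNNAA in 3 of 9 (Cyp2c37, Cyp2c40 and Cyp2c67), against 10.8%. The STAT5 motif TTCNNNGAA, present in 8.3% of all windows, and an HNF1 motif, present in 0.06%, had no match in these 9 windows. No motif overlapped a different one, while the 2 HNF6 matches of Cyp2c37, on opposite strands, overlapped each other. The members with a match in common include copies of each other.

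Library totals ran from 1538889 counts (Male KO replicate 3) to 9874733 counts, and between 7.32% and 16.2% of counts were mitochondrial. Cyp2e1 itself averaged 32.4 ± 13.1 CPM (counts scaled to library size) in Male KO and 26.3 ± 7.29 CPM in Female KO, against 476 ± 54.0 CPM in Male WT and 398 ± 63.4 CPM in Female WT (SD), with no overlap between genotypes. Xist reached at most 4.34 CPM in male libraries and at least 61.1 CPM in female ones, as the labels of sex require. Of 8 hepatocyte markers, 7 were in the table, and their summed level was 94640 to 126194 CPM in Male KO, 100424 to 122081 CPM in Female KO, 113209 to 124188 CPM in Male WT and 108945 to 128720 CPM in Female WT. In whole tissue, fewer cells of a type and less RNA per cell cannot be told apart.

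The sexes differed in most of the subfamily and in opposite directions. Males had about 5 times as much Cyp2c67 and about 2 times as much Cyp2c29 RNA as females, and females had several times as much Cyp2c39, Cyp2c40 and Cyp2c38 as males, in both genotypes. In KO livers 7 of 10 members passed the test for sex, 2 higher and 5 lower in males, and in WT livers 8 of 10 passed, 2 higher and 6 lower in males. Over all genes tested, 7.44% passed in KO (3.67% higher and 3.77% lower in males) and 5.61% in WT (2.36% higher and 3.25% lower). A gene is called here when its Benjamini-Hochberg adjusted p, over all genes tested, is under 0.05 in edgeR's quasi-likelihood test, and fold changes are on the log2 scale with their standard error.

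The libraries of the sexes did not overlap in CPM for 8 of 10 members in KO, against 3.67% of all genes tested. In WT this was so for 9 of 10 members, against 7.72%. The deposited CPM does not include the TMM scaling of libraries that the tests use. With that scaling, libraries of the sexes overlapped in KO for Cyp2c37, Cyp2c50 and Cyp2c68. The share of all genes without overlap was not computed on that scale. The members' median log2 fold change, male against female, was −0.59 in KO, where that of all genes tested was 0.01, and −0.77 in WT, where that of all genes tested was −0.02.

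**Figure D1:**
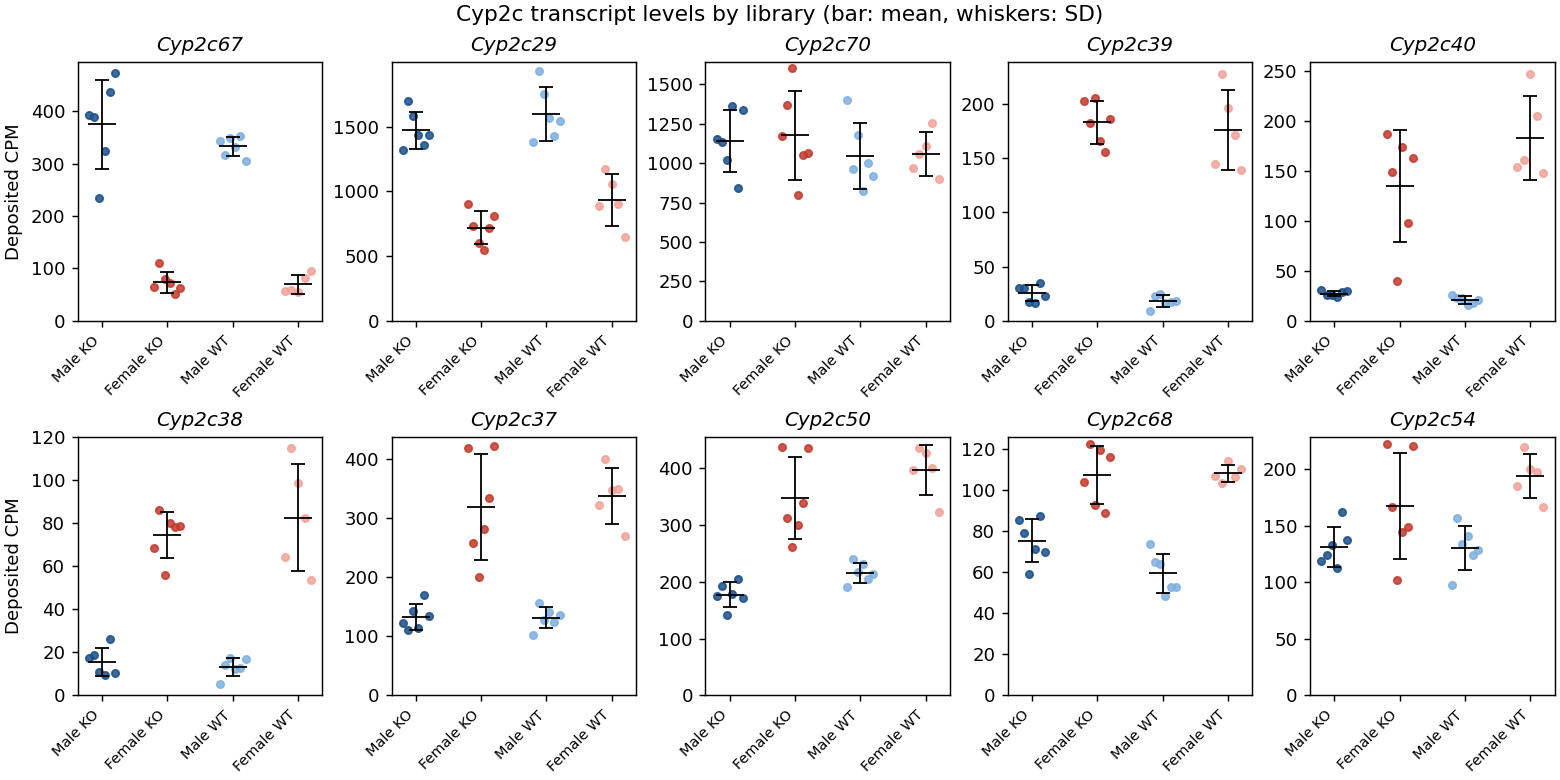
Deposited CPM of the 10 Cyp2c genes in every library (points) of the 4 groups, with the group mean as a bar and the SD as whiskers. Each panel has its own axis starting at 0. Male and female libraries of each genotype are apart for Cyp2c67, Cyp2c29, Cyp2c39, Cyp2c40, Cyp2c38, Cyp2c37, Cyp2c50 and Cyp2c68. They overlap for Cyp2c70 in both genotypes and for Cyp2c54 in KO only.

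Cyp2c67 was the member most enriched in males. Its lowest, median and highest CPM were 234, 392 and 473 in Male KO, against 50.6, 68.8 and 110 in Female KO. In WT they were 305, 337 and 352 in Male WT, against 56.0, 59.6, 55.3, 82.4 and 94.8 CPM in the 5 Female WT libraries. The lowest male library held more than 2 times the CPM of the highest female library in each genotype. The log2 fold change, male against female, was 2.51 ± 0.18 in KO (SE, 5.70-fold, adjusted p = 5.87e-11, edgeR) and 2.35 ± 0.19 in WT (5.09-fold, adjusted p = 7.97e-10).

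Cyp2c29, an arachidonic acid epoxygenase whose RNA is induced through the receptor CAR, was the other male-enriched member and was abundant in every library. Male KO libraries held 1323, 1436 and 1702 CPM (lowest, median, highest), against 550, 727 and 899 CPM in Female KO. Male WT libraries held 1383, 1555 and 1931 CPM, against 890, 1174, 1057, 906 and 646 CPM in Female WT. The groups did not overlap in either genotype, and the log2 fold change was 1.19 ± 0.13 in KO (adjusted p = 3.14e-07, edgeR) and 0.89 ± 0.14 in WT (adjusted p = 8.29e-05).

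Cyp2c39, known as a retinoic acid hydroxylase, showed the largest sex difference of the 10 in both genotypes, towards females. Male KO libraries held 16.8, 26.3 and 34.5 CPM, against 156, 184 and 206 CPM in Female KO (lowest, median, highest). Male WT libraries held 8.63, 17.5 and 25.0 CPM, against 145, 228, 196, 171 and 139 CPM in Female WT. Levels were 6.45-fold lower in males in KO (log2 fold change −2.69 ± 0.19, adjusted p = 4.77e-11, edgeR) and 8.96-fold lower in WT (−3.16 ± 0.20, adjusted p = 2.63e-12).

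Cyp2c40, an arachidonic acid hydroxylase, and Cyp2c38, an arachidonic acid epoxygenase, were the other strongly female-enriched members. Cyp2c40 reached 23.5, 27.3 and 30.4 CPM in Male KO, against 39.6, 156 and 187 CPM in Female KO. In WT it reached 15.5, 21.5 and 26.0 CPM in males, against 154, 161, 247, 205 and 148 CPM in the 5 female libraries. Female KO replicate 3, at 39.6 CPM, stood below the other 5 libraries of its group, which held 97.7 to 187 CPM. Males were lower by a log2 fold change of −2.18 ± 0.26 in KO (4.52-fold, adjusted p = 6.61e-07, edgeR) and −3.03 ± 0.27 in WT (8.14-fold, adjusted p = 2.74e-09). Without Female KO replicate 3 the difference in KO was −2.37 (adjusted p = 1.09e-10).

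For Cyp2c38 the values were 9.58, 14.2 and 26.1 CPM in Male KO, against 55.8, 78.4 and 86.3 CPM in Female KO. They were 5.45, 13.2 and 17.3 CPM in Male WT, against 64.2, 115, 98.6, 82.3 and 53.6 CPM in Female WT. The groups were apart in both genotypes, and the log2 fold change was −2.10 ± 0.25 in KO (adjusted p = 5.35e-07, edgeR) and −2.52 ± 0.25 in WT (adjusted p = 2.32e-08). Male KO replicate 3, the shallowest library, held 17 counts of this gene.

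The 3 copies Cyp2c37, Cyp2c50 and Cyp2c54 encode arachidonic and linoleic acid oxidising enzymes and leaned towards females to unequal degrees. Cyp2c37 averaged 132 ± 21.9 CPM in Male KO and 319 ± 89.8 CPM in Female KO, and 132 ± 18.0 CPM in Male WT and 338 ± 47.6 CPM in Female WT (SD). Its log2 fold change was −1.11 ± 0.18 in KO (adjusted p = 7.83e-05, edgeR) and −1.25 ± 0.18 in WT (adjusted p = 2.31e-05). Cyp2c50 averaged 177 ± 21.6 CPM in Male KO and 347 ± 72.8 CPM in Female KO, and 216 ± 17.4 CPM in Male WT and 396 ± 44.2 CPM in Female WT. It was lower in males by a log2 fold change of −0.82 ± 0.13 in KO (adjusted p = 4.98e-05, edgeR) and −0.77 ± 0.13 in WT (adjusted p = 0.000197). Neither gene's male and female libraries overlapped in CPM. With TMM scaling both genes' libraries overlapped in KO. Male KO replicate 5 had log2 CPM of 7.65 for Cyp2c37 and 7.92 for Cyp2c50, against 7.52 and 7.90 in Female KO replicate 3.

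Cyp2c54 was not called in either genotype. It averaged 131 ± 17.7 CPM in Male KO and 168 ± 46.9 CPM in Female KO, with overlapping libraries and a log2 fold change of −0.19 ± 0.16 (adjusted p = 0.508, edgeR). In WT it averaged 130 ± 19.7 CPM in males and 194 ± 19.4 CPM in females, whose libraries did not overlap, with a log2 fold change of −0.46 ± 0.17 (adjusted p = 0.131). An edgeR fit of the 2 WT groups alone called this difference (adjusted p = 0.0141), as did limma on log2(CPM + 1) (adjusted p = 0.0273). The ratio of Cyp2c37 to Cyp2c54 CPM within a library was 1.005 ± 0.064 in Male KO and 1.92 ± 0.22 in Female KO, and 1.01 ± 0.04 in Male WT and 1.74 ± 0.08 in Female WT.

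Cyp2c68, the closest copy of Cyp2c40, had smaller fold changes between the sexes than Cyp2c40 or Cyp2c67. It averaged 75.2 ± 10.6 CPM in Male KO and 107 ± 14.3 CPM in Female KO, a log2 fold change of −0.36 ± 0.12 that missed the threshold (adjusted p = 0.0688, edgeR). In WT it averaged 59.3 ± 9.58 CPM in males and 108 ± 4.09 CPM in females and was called lower in males (−0.77 ± 0.13, adjusted p = 0.000154). Libraries of the sexes did not overlap in CPM in either genotype. With TMM scaling they overlapped in KO, where Male KO replicate 5 had a log2 CPM of 6.68 and Female KO replicate 3 one of 6.41. In KO the call was made without Female KO replicate 3 (adjusted p = 0.0459), without Male KO replicate 5 (adjusted p = 0.0336) and by limma on log2(CPM + 1) (adjusted p = 0.00402).

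Cyp2c70, which makes muricholic acids from chenodeoxycholic acid in mouse liver, had male and female libraries that overlapped in both genotypes. It averaged 1140 ± 197 CPM in Male KO and 1176 ± 280 CPM in Female KO, and 1048 ± 209 CPM in Male WT and 1059 ± 138 CPM in Female WT. The log2 fold change was 0.12 (interval of 2 SE from −0.16 to 0.40, adjusted p = 0.629, edgeR) in KO and 0.08 (−0.21 to 0.38, adjusted p = 0.827) in WT. These fold changes use TMM-scaled counts and were positive, although the male means of deposited CPM were slightly lower in both genotypes. No counting window of this gene was shared with another Cyp2c gene.

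**Figure D2:**
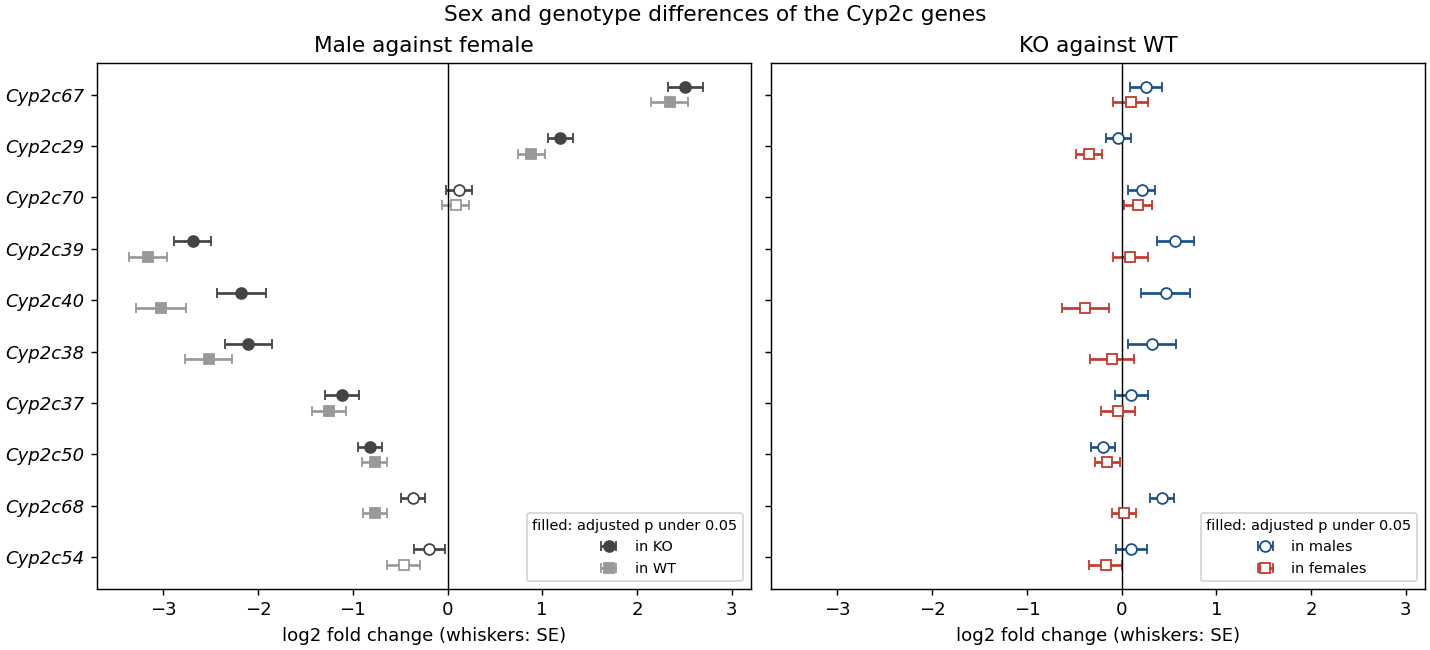
Log2 fold changes (horizontal axis, whiskers SE) of the 10 Cyp2c genes between males and females (left, KO dark and WT pale) and between KO and WT (right, males blue and females red). Filled symbols passed an adjusted p of 0.05. On the left 7 symbols are filled in KO and 8 in WT, and on the right none is filled.

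Sums over near-identical copies do not depend on how reads were divided among the genes summed, although Cyp2c69, a further copy of Cyp2c40, was not in the sum. With the counts of each copy group summed and the whole table refitted, Cyp2c38 with Cyp2c39 was lower in males by a log2 fold change of −2.50 ± 0.21 in KO (adjusted p = 1.11e-09, edgeR) and −2.93 ± 0.22 in WT (adjusted p = 7.9e-11). Cyp2c37 with Cyp2c50 and Cyp2c54 was lower by −0.76 ± 0.15 in KO (adjusted p = 0.00112) and −0.85 ± 0.16 in WT (adjusted p = 0.000485). Cyp2c40 with Cyp2c67 and Cyp2c68, whose members went in opposite directions, summed to 478 ± 94.2 CPM in Male KO and 316 ± 72.2 CPM in Female KO. The same sum was 413 ± 24.6 CPM in Male WT and 361 ± 43.5 CPM in Female WT. Its log2 fold change was 0.74 ± 0.15 in KO, called higher in males (adjusted p = 0.00201), and 0.29 ± 0.16 in WT, not called (adjusted p = 0.362). The opposite sex differences of Cyp2c67 and Cyp2c40 therefore show in the separate counts and not in the sum.

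Within a library the ratio of Cyp2c67 to Cyp2c40 CPM restates these opposite differences and cancels library scaling. It rests on the same counts and on how reads were divided between the copies. It lay between 9.14 and 15.9 in Male KO and between 0.35 and 2.02 in Female KO, and between 13.2 and 21.4 in Male WT and between 0.22 and 0.64 in Female WT. The ratio of Cyp2c29 to Cyp2c39 had a median of 59.7 in Male KO and 4.18 in Female KO, and of 85.7 in Male WT and 5.29 in Female WT.

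**Figure D3:**
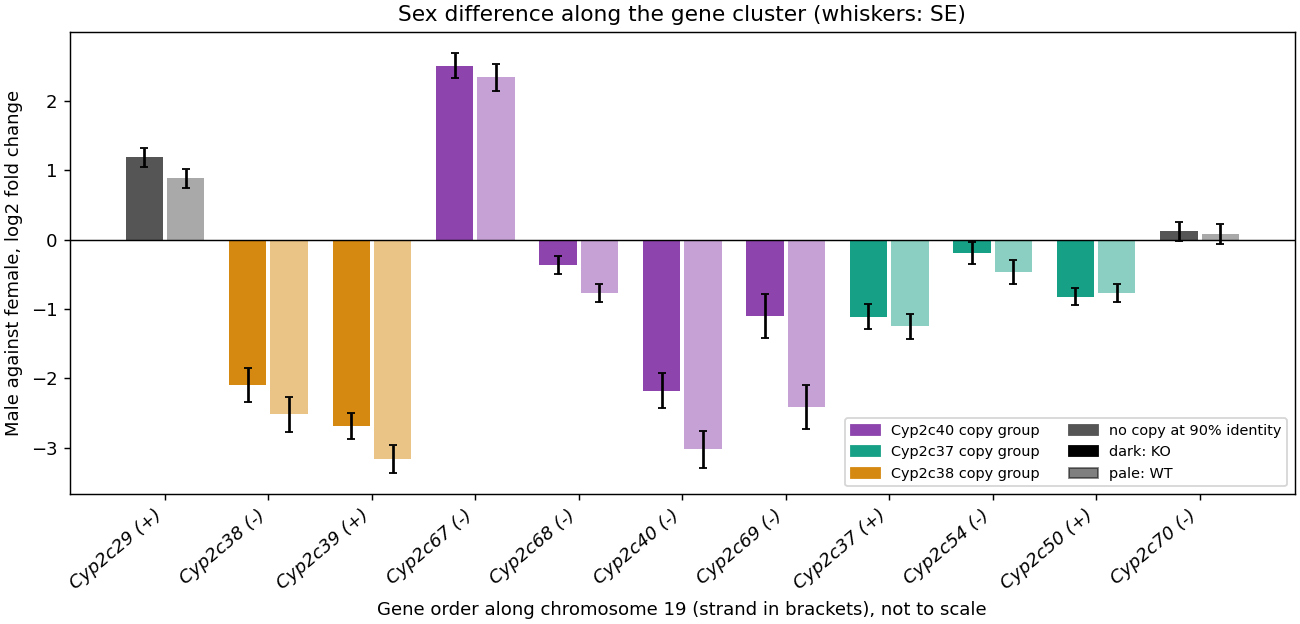
Male against female log2 fold change (vertical axis, whiskers SE) of the Cyp2c genes in their order along chromosome 19, dark for KO and pale for WT, coloured by copy group. Cyp2c67 stands at 2.51 in KO and 2.35 in WT between Cyp2c39, at −2.69 in KO and −3.16 in WT, and Cyp2c68, at −0.36 in KO and −0.77 in WT, and Cyp2c69, outside the 10 genes, is drawn with its close copies of the Cyp2c40 group.

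Along the cluster, male-enriched and female-enriched genes are interspersed. Cyp2c29 on the plus strand was male-enriched and stands beside Cyp2c38 and Cyp2c39, which were female-enriched. Cyp2c67, Cyp2c68 and Cyp2c40 follow each other on the minus strand with log2 fold changes of 2.51, −0.36 and −2.18 in KO and 2.35, −0.77 and −3.03 in WT.

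The summed level of the 10 genes differed between the sexes by less than the larger SD, while its make-up shifted. The sum was 3572 ± 215 CPM in Male KO and 3303 ± 391 CPM in Female KO, and 3570 ± 270 CPM in Male WT and 3540 ± 463 CPM in Female WT, between 0.330% and 0.357% of all CPM. Reads counted at transcript ends do not scale with length, so CPM of different genes may be set side by side, within the limit of shared reads. Cyp2c29 made up 41.3% of the sum in Male KO and 21.7% in Female KO, and 44.8% in Male WT and 26.2% in Female WT. Cyp2c67 made up 10.5% in Male KO and 2.24% in Female KO, and 9.37% in Male WT and 2.03% in Female WT. The mean shares of Cyp2c39, Cyp2c40 and Cyp2c38 were each below 1% of the sum in the male groups. They lay between 2.29% and 5.57% in the female groups. The highest share of Cyp2c39 in a Male KO library was 1.03%.

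**Figure D4:**
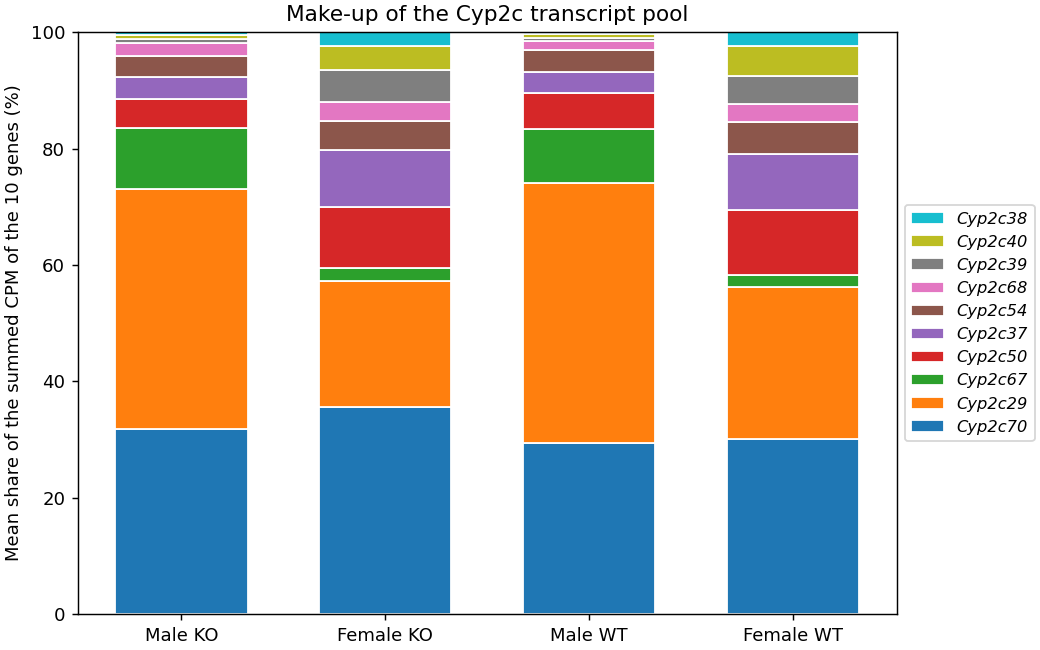
Mean share (vertical axis, percent) of each of the 10 Cyp2c genes in their summed CPM, by group. Cyp2c29 and Cyp2c70 together take the larger part of every bar, and Cyp2c67 takes 10.5% in Male KO and 2.24% in Female KO.

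In all 4 groups Cyp2c29 and Cyp2c70 held the 2 highest mean CPM, with Cyp2c29 first in males and Cyp2c70 first in females and overlapping libraries between them. Cyp2c67 followed them in both male groups, above and without overlap with Cyp2c50, and came last in both female groups, where it overlapped with Cyp2c38. In females Cyp2c50 and then Cyp2c37 followed them, with overlapping libraries. Cyp2c40, Cyp2c39 and Cyp2c38 were the lowest in males and overlapped with their neighbours in that order.

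Between KO and WT no member was called in either sex. In females 0.193% of all genes tested were called (0.0792% higher and 0.114% lower in KO), and in males 0.132% (0.0616% higher and 0.0704% lower), so few calls are made by this comparison anywhere in the table. No member's KO and WT libraries were free of overlap in either sex, against 1.07% of all genes tested in females and 0.616% in males. Members with an unadjusted p under 0.05 were 1 in females (Cyp2c29) and 2 in males (Cyp2c39 and Cyp2c68), and 1005 and 1492 of the 11370 genes had one in females and males. The median log2 fold change of the members was −0.07 in females and 0.24 in males, beside 0.01 and 0.04 over all genes tested.

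Cyp2c29 averaged 719 ± 128 CPM in Female KO and 935 ± 199 CPM in Female WT, a log2 fold change of −0.34 ± 0.14 (unadjusted p = 0.0213, adjusted p = 0.464, edgeR, n = 6 and 5). In males its difference was −0.03 ± 0.13. Cyp2c39 averaged 25.3 ± 7.30 CPM in Male KO and 18.0 ± 5.67 CPM in Male WT, a log2 fold change of 0.57 ± 0.19 (adjusted p = 0.265, edgeR). Cyp2c68 averaged 75.2 ± 10.6 CPM in Male KO and 59.3 ± 9.58 CPM in Male WT, a difference of 0.43 ± 0.12 (adjusted p = 0.184, edgeR). The KO and WT libraries overlapped for each of these genes, and none of the differences passed the adjusted threshold. With copies summed, Cyp2c38 with Cyp2c39 had a difference of 0.47 ± 0.21 in males (adjusted p = 0.353) and 0.04 ± 0.20 in females (adjusted p = 0.987). Cyp2c40 with Cyp2c67 and Cyp2c68 had one of 0.30 ± 0.15 in males (adjusted p = 0.402) and −0.15 ± 0.16 in females (adjusted p = 0.859). Cyp2c37 with Cyp2c50 and Cyp2c54 had one of −0.02 ± 0.15 in males (adjusted p = 0.976) and −0.11 ± 0.16 in females (adjusted p = 0.908). The other members' log2 fold changes, KO against WT, lay between −0.38 for Cyp2c40 and 0.17 for Cyp2c70 in females and between −0.20 for Cyp2c50 and 0.47 for Cyp2c40 in males.

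The sex by genotype interaction, a two-sided test of whether the KO against WT difference is the same in males and females, called no member and 0% of all genes tested (0% higher and 0% lower), with 643 genes at an unadjusted p under 0.05. Among members, Cyp2c40 had an interaction of 0.85 (unadjusted p = 0.0257, adjusted p = 0.837, edgeR) and Cyp2c68 one of 0.40 (unadjusted p = 0.0329, adjusted p = 0.848). The summed counts of Cyp2c40, Cyp2c67 and Cyp2c68 had an interaction of 0.44 (adjusted p = 0.908), and those of Cyp2c38 and Cyp2c39 one of 0.43 (adjusted p = 0.934). The smaller sex differences of Cyp2c39, Cyp2c40 and Cyp2c38 in KO than in WT were therefore not established as differences between genotypes. The tests of sex in KO and WT compare different libraries. Both come from 1 fit with a shared filter, scaling and estimate of spread, so they are not independent.

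Some pairs of members also varied together among mice of the same group. The share of such pairs among other genes was not computed, so the counts below are not shown to be particular to this subfamily. Deviations of log2 CPM from the group means over 23 libraries gave 45 pairs of members, of which 32 correlated positively. With p-values from 100000 permutations within groups, adjusted over the 45 pairs, 14 positive pairs and 1 negative pair passed 0.05 by Pearson's r, and 8 positive pairs and 0 negative pairs by Spearman's rho. Cyp2c37 and Cyp2c54 had a Pearson r of 0.94 (rho 0.92, adjusted permutation p = 0.000225), and an r of 0.92 without the 2 libraries farthest from the median. Cyp2c37 with Cyp2c50 reached an r of 0.87 and Cyp2c38 with Cyp2c39 an r of 0.86. These pairs are copies that can share reads, and all values share a library. Among genes that are no close copies, Cyp2c29 and Cyp2c37 had an r of 0.70 (rho 0.75, adjusted permutation p = 0.00143), and 0.70 again without the 2 farthest libraries. The negative pair was Cyp2c38 with Cyp2c70, at an r of −0.56 (rho −0.39, not passing by rho) that was −0.36 without the 2 farthest libraries.

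Female KO replicate 3 took part in several of these deviations. It held the lowest Cyp2c40, Cyp2c37, Cyp2c50, Cyp2c54 and Cyp2c38 CPM of its group. It also held the group's highest Cyp2c70 CPM, at 1601, and highest Cyp2c39 CPM, at 206. Its total of 4658677 counts was the median of all libraries, and 14.9% of its counts were mitochondrial.

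Genes of P450 electron supply, haem synthesis and epoxide handling, listed with other fatty acid P450 genes, were set beside the members. Of 12 tested, 1 was called higher and 1 lower in males in KO, and 2 higher and none lower in WT, beside 7.44% and 5.61% of all genes tested called either way. Cyp2u1, a P450 for long-chain fatty acids, averaged 38.7 CPM in Male KO and 5.20 CPM in Female KO, and 57.7 CPM in Male WT and 3.69 CPM in Female WT (log2 fold changes 3.05 and 4.05, adjusted p = 1.28e-10 and 2.39e-12, edgeR). Alas1, which starts haem synthesis, was lower in males in KO (−1.41 ± 0.43, adjusted p = 0.0433), and Ephx2, which hydrolyses fatty acid epoxides, was higher in males in WT (0.75 ± 0.18, adjusted p = 0.00857). The highest uncalled genes were Cyb5a, Cyb5r3, Por and Ephx1. The log2 fold change of Por, the P450 reductase, was −0.84 ± 0.40 in KO and −0.43 ± 0.42 in WT. The list's median was 0.13 in KO and 0.12 in WT, beside 0.01 and −0.02 over all genes tested.

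The receptor list held 29 receptors and transcription factors that set hepatic P450 expression, or report growth hormone signalling. In KO 1 was called higher and 4 lower in males, and in WT 2 higher and 5 lower. Of all genes tested, 7.44% were called either way in KO and 5.61% in WT. The list medians were −0.21 and −0.24, beside 0.01 and −0.02 over all genes tested. Cux2 was at 0.27 CPM in Male KO and 8.25 CPM in Female KO, while Male WT held 0.24 CPM and Female WT 12.0 CPM (log2 fold changes −4.47 and −5.45). Trim24 (−1.68 and −1.73) and the oestrogen receptor gene Esr1 (−1.51 and −1.49) were lower in males and the growth hormone receptor gene Ghr (0.62 and 0.43) was higher in males in both genotypes. Nr1i2, which encodes the receptor PXR, was called lower in males in KO (−0.65, adjusted p = 0.021, edgeR). Called in WT were the STAT5 targets Socs2 (−1.17) and Cish (−1.62), lower in males, and Bcl6 (1.68), higher in males. The highest uncalled genes were Rxra, Hnf4a, Nr1i3, which encodes CAR, and Onecut2, with differences between −0.63 and 0.04 in both genotypes.

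The call between KO and WT given here from this list is that of Cish in males. It averaged 38.6 CPM in Male KO and 4.56 CPM in Male WT (log2 fold change 3.14, adjusted p = 0.000133, edgeR). No gene of the other 4 lists was called between genotypes in either sex.

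Other targets of CAR and PXR were called in both directions. Of 26 tested, 4 were called higher and 11 lower in males in KO, and 5 higher and 10 lower in WT. Of all genes tested, 7.44% were called either way in KO and 5.61% in WT. The list medians were −0.38 and −0.22, beside 0.01 and −0.02 over all genes tested. Lower in males in both genotypes were Cyp3a41a (−7.19 in KO and −7.41 in WT), Cyp3a44 (−6.82 and −7.03), Cyp3a16 (−6.17 and −6.36), Sult1e1 (−4.63 and −3.34), Abcb1a (−2.91 and −3.29), Cyp2a5 (−2.53 and −1.75), Cyp2a4 (−2.46 and −2.39), Slco1a4 (−1.58 and −1.67), Cyp3a11 (−1.30 and −1.36) and Ugt1a1 (−0.60 and −0.48). Gsta2 was called lower in KO (−0.77). Higher in males in both were Cyp2b10 (2.34 and 2.63), Aldh1a1 (0.86 and 0.93), Ugt2b35 (0.75 and 0.84) and Ces2a (0.52 and 0.51), and Cyp1a2 was called higher in WT (0.49). Several of these, such as Cyp3a41a with Cyp3a44 and Cyp2a4 with Cyp2a5, are near-identical copies and carry the same uncertainty.

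Genes of the hepatocyte zones near the central and portal veins were set beside the members, since P450 expression is zoned in the lobule. Of 23 pericentral genes, 2 were called higher and none lower in males in KO, and likewise in WT. These were Aldh1a1 in both, Cyp27a1 in KO (0.45) and Cyp1a2 in WT. Beside these and the periportal counts, 7.44% of all genes tested were called either way in KO and 5.61% in WT. The pericentral list medians were −0.06 in KO and −0.07 in WT. Of 18 periportal genes, 1 was called higher and 3 lower in males in KO (Cyp2f2 at 1.11, Pigr at −0.63, Gls2 at −0.42, Aldh1b1 at −0.78), and 2 higher and 1 lower in WT (Cyp2f2 at 1.26, Etnppl at 0.81, Ctsc at −0.74). The periportal list medians were −0.12 in KO and −0.07 in WT, while the medians over all genes tested were 0.01 and −0.02. Glul, the glutamine synthetase of the cells next to the central vein, had differences of −0.20 in KO and −0.07 in WT and was not called.

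Of 7 lists of markers of other cells, 1 was apart between the sexes in both genotypes and 1 more in WT. The summed level of 4 exocrine pancreas markers was 113 to 206 CPM in Male KO and 27.2 to 85.4 CPM in Female KO, and 71.6 to 129 CPM in Male WT and 26.7 to 43.7 CPM in Female WT. It came almost wholly from Cela1, since the defining markers Prss2 and Pnlip had at most 0.222 CPM in any library, and Cpa1 was at 0 in all libraries of Male KO, Male WT and Female WT. The summed level of 7 sinusoidal endothelium markers was 76.7 to 176 CPM in Male KO and 44.4 to 169 CPM in Female KO, and 108 to 142 CPM in Male WT and 150 to 178 CPM in Female WT. The summed level of 4 B and plasma cell markers was apart by genotype, at 14.2 to 47.7 CPM in Male KO and 7.67 to 12.2 CPM in Male WT, and at 20.8 to 36.9 CPM in Female KO and 9.08 to 13.5 CPM in Female WT. The part of these cells in the Cyp2c results was not tested.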

How the data were processed

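Sample titles gave the group and replicate number of each library. The authors deposited an estimated count and a CPM value per gene and library. Counts were rounded to whole numbers, and CPM was used as deposited for levels. The build mm39, the aligner STAR 2.7.11, the counter featureCounts, Subread 2.1.1, and SAMtools 1.22.1, fastp 0.24.0, MultiQC 1.32 and FastQC 0.12.1 are named, without order or settings, per the submitters' processing notes. The table held 0 columns of no sample.

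All 23 libraries entered 1 quasi-likelihood fit of 4 groups in edgeR 4.0.16 (R 4.3.3, TMM scaling, filterByExpr), tested on simulated data, with 5 contrasts over 11370 genes. The SE is the size of the log2 fold change over the root of F. The p-values weigh each difference against the spread between these libraries as estimated in the fit. Among 55 pairs of libraries within a group, chi-square over degrees of freedom of the counts was 2.78 to 32.2, so none was a copy of another. Alternatives used DESeq2 1.42.0, limma 3.58.1, other scalings and filters, summed copies, a replicate block and leaving out each library.

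Protein identity was computed from translated GENCODE M21 coding sequences and promoters came from RefSeq. Both use GRCm38 and not mm39, so no position was matched to the counts. The 10 members and all lists were chosen with earlier results of these data known. All members are named, and from each list every called gene but 1 call of the receptor list that is not reported here, with up to 4 uncalled genes of highest CPM; Glul was named after its values were seen.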

Additional observations from a re-analysis of the deposited data

How the results depend on the processing

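Summing copies into 5 features gave 4 calls of sex in KO and 3 in WT of those 5. In WT, Cyp2c40, Cyp2c67 and Cyp2c68 were each called, in opposite directions, and their sum was not. Every other setting tried, leaving out each library included, kept the number of members called for sex within 1.5 times and called no member between genotypes or in the interaction. Reversals touched uncalled values near 0. Limma on log2(CPM + 1) gave Cyp2c68 −0.0224 in females (KO against WT) and Cyp2c70 −0.029 in KO and −0.0279 in WT (male against female). The Cyp2c70 interaction was −0.0011 there and −0.0029 without a filter. Leaving out 1 library at a time, KO against WT ranged in females from −0.139 to 0.0847 for Cyp2c37, −0.204 to 0.0391 for Cyp2c38, −0.0333 to 0.265 for Cyp2c67 and −0.0468 to 0.0878 for Cyp2c68. In males it ranged from −0.0967 to 0.0314 for Cyp2c29, −0.0164 to 0.192 for Cyp2c37 and −0.0035 to 0.167 for Cyp2c54. The interaction ranged from −0.146 to 0.0326 for Cyp2c50, −0.0067 to 0.294 for Cyp2c67 and −0.0364 to 0.126 for Cyp2c70, and the Cyp2c70 sex difference in WT from −0.0031 to 0.15. The causes were not tested.

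Counts over all genes moved more. KO against WT called 22 genes in females and 15 in males, against 48 and 50 by DESeq2 and 62 and 157 with no filter, which called 25 in the interaction. In males limma-voom called 8 (8 on unrounded counts) and limma on CPM 9. Fits of 2 groups called 398 (sex in KO) and 1121 (sex in WT). KO against WT called 13 in females without Female WT replicate 1. In males it called 49 without Male KO replicate 2, 9 without Male KO replicate 3 and 7 without Male WT replicate 3, 4, 5 or 6. Sex in KO called 1693 without Male KO replicate 2 and 1577 without Female KO replicate 4.

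Same-numbered libraries of 2 groups had correlations of −0.351 to 0.303 in their deviations, and the labels name no pairs. Between the sexes they were 0.001 to 0.286 in KO and 0.03 to 0.245 in WT. Libraries of other numbers had means of −0.026 and −0.03 there. A shared handling of same-numbered libraries was not tested. With the replicate block, members called stayed at 7 (sex in KO), 8 (sex in WT) and 0 between genotypes, and the interaction called 1 gene in the table. Depth limits Cyp2c38 and Cyp2c39 most, at 17 and 27.6 counts in Male KO replicate 3.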

Other observations

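The table held 11 further entries with a Cyp2c symbol. Cyp2c69, a close copy of Cyp2c40 (95.1% protein identity), averaged 7.02 CPM in Male KO, against 15.0 CPM in Female KO. In WT it averaged 4.16 CPM in males, against 23.4 CPM in females. It was called lower in males in KO (log2 fold change −1.11, adjusted p = 0.0318, edgeR) and in WT (−2.41, adjusted p = 4.28e-06). Cyp2c23, an arachidonic acid epoxygenase that no transcript-end window tied to another Cyp2c gene, averaged 194 ± 68.7 CPM in Male KO and 186 ± 34.4 CPM in Female KO, and 258 ± 23.4 CPM in Male WT and 228 ± 29.3 CPM in Female WT, and was not called for sex (adjusted p = 0.482 in KO and 0.417 in WT, edgeR). Cyp2c55 had 7 counts over all Male KO libraries and 7 over Female KO, with 14 over Male WT and 2 over Female WT. Cyp2c65, Cyp2c66 and the pseudogenes Cyp2c52-ps, Cyp2c53-ps (listed under 2 identifiers), Cyp2c71-ps, Cyp2c72-ps and Cyp2c73-ps stayed under 1 CPM in every library.

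The genes outside Cyp2c whose deviations from the group means most resembled those of the summed Cyp2c CPM over 23 libraries, of 11358 genes compared, were Tm2d3 (r = 0.82), Ces1g (0.77), Caml (0.75), Pex7 (0.73) and Crb3 (0.72). The lowest correlations were those of Krba1 (−0.74), Stmn1 (−0.72), Kat6b (−0.72), Enc1 (−0.70) and mt-Cytb (−0.70), the last a mitochondrial transcript. The 5 and 5 genes are the extremes of a ranking and are given as a description.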
